A study of Mus musculus with 9 samples.

Results

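Calr, Rpn1, Ext2, Herpud1 and Hsp90aa1 are 5 genes of the secretory pathway and of protein folding, taken from the 251 genes that the authors' deposited table lists for dinaciclib against vehicle. They were chosen by name for their place in this pathway with their dinaciclib values known, so their differences between dinaciclib and vehicle are described here and not tested. The cells were EHE17, 1 mouse tumour cell line labelled endothelial, with the genotype TC+/+ Cdkn2a -/- in every group. One group of 3 replicates received DMSO vehicle, another 300 nM dinaciclib for 16 h and the third 10 µM MGH-CP1 for 16 h; the vehicle time is not stated. RNA was captured on poly-T beads and no strand mark is described. Dinaciclib inhibits cyclin-dependent kinases, including CDK9, which drives elongation by RNA polymerase II.

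Proteins bound for the cell surface or for secretion enter the endoplasmic reticulum, where chaperones fold them and glycosyltransferases add sugars. Calreticulin (Calr) binds calcium and holds newly made glycoproteins through their trimmed N-glycans, and ribophorin I (Rpn1) is a subunit of the oligosaccharyltransferase that attaches those glycans. Ext2 works in the Golgi with Ext1 as a heterodimer that polymerises heparan sulfate, the chain on syndecans and other proteoglycans through which endothelial cells bind growth factors. Herpud1 is a membrane protein of the endoplasmic reticulum that serves the degradation of misfolded proteins, and its gene is a classical target of the unfolded protein response. Hsp90aa1 encodes the inducible cytosolic HSP90 alpha, which matures kinases and steroid receptors and lies outside the secretory compartment.

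Calr and Herpud1 are shown by sequence because both are known stress-response genes and stood on opposite sides of the comparison. Windows from 250 bases before to 50 after the annotated start were taken from RefSeq (GRCm38.p6), and 4 members matched by symbol (Calr, Rpn1, Ext2 and Herpud1). On both strands, 3 motifs were searched: the endoplasmic reticulum stress element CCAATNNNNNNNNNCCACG (ERSE), the related element ATTGGNCCACG (ERSE-II), and TGACGTGG, the core of the XBP1 element (UPRE). ERSE and ERSE-II share the CCAAT box, read on opposite strands, and the letters CCACG. ERSE was in 39 of 32851 windows (0.119%), ERSE-II in 12 (0.0365%) and the UPRE core in 222 (0.676%). The 250 bases before each start follow, 5′ to 3′ on the strand of the gene, with the fixed letters of the match in capitals; Calr lies on the minus strand (chr8:84846932-84847181) and Herpud1 on the plus strand (chr8:94386179-94386428).

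Calr: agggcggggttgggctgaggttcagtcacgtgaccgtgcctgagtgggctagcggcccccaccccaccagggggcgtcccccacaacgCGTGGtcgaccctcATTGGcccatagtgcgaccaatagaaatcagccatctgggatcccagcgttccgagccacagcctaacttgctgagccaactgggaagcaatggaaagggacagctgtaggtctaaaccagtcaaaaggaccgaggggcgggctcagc
Herpud1: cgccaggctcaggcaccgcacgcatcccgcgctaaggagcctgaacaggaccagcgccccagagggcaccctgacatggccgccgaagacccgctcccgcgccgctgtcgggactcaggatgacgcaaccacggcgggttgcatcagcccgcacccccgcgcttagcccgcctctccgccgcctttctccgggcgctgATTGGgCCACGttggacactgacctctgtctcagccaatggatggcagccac

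The Calr window holds ERSE on the strand opposite to the gene, 144 to 162 bases before the start. The Herpud1 window holds ERSE-II on the strand of the gene, 42 to 52 bases before the start. Among the 271 windows of genes in the dinaciclib table, Calr was the 1 with ERSE, Herpud1 the 1 with ERSE-II, and 0 held the UPRE core. The Rpn1 and Ext2 windows held none of the 3 motifs. Only exact matches were counted, and near matches to these motifs were not sought. A match describes letters only. Calr was higher in dinaciclib and Herpud1 lower.

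Dinaciclib libraries were shallow, with 2541162 to 3316779 counts against 31852117 to 40020833 in vehicle (a 12.2-fold gap between the mean totals). The authors' size factors differed by 11.1 times. All levels are relative to the rest of a library. The labels name no spike-in, so a higher share of the library and a loss of other transcripts cannot be told apart, nor can fewer cells and less RNA per cell. The table holds only genes with a deposited change of at least 1.0 on the log2 scale and a tumour-type entry. Of 15 endothelial markers 4 were in it (Kdr, Fli1, Notch1 and Gata2), with a summed level of 12679.9 to 13116 normalised counts (counts divided by the authors' size factor) in vehicle and 2431 to 2722 in dinaciclib. Of the markers of other cell types, 0 of 9 for macrophages and leukocytes, 0 of 9 for fibroblasts and mural cells and 0 of 4 for epithelium were listed. The MGH-CP1 table listed 2 markers of macrophages and leukocytes, 1 endothelial marker and 0 of the other types. A marker missing from these picked tables is not reported as absent from the cells.

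Calr, the chaperone, made up more than any other listed gene of the dinaciclib libraries per unit of length. Its FPKM (counts scaled to gene length and library total) was 237, 231 and 233 in vehicle replicates 1, 2 and 3, and 7804, 5942 and 8122 in dinaciclib replicates 1, 2 and 3. The groups did not overlap, and dinaciclib replicate 2 was the lowest of its group. All genes of the table were picked for change on these libraries. Groups that lie apart, here and below, are therefore not particular to the members. As raw counts Calr had 21773, 22689 and 26904 in vehicle and 57114, 56758 and 66938 in dinaciclib, so that libraries with a much smaller total held 2.53 times as many Calr counts. Of all counts, Calr took 0.0673% ± 0.000967 in vehicle and 2.10% ± 0.339 in dinaciclib (SD, n = 3). The normalised count was 28.4-fold higher in dinaciclib, a log2 change of 4.83 with SE 0.177. By FPKM Calr ranked 2 of 251 in vehicle, behind Tpm4 at 484, and 1 in dinaciclib, ahead of Tpm4 at 5719. Calr (ENSMUSG00000003814, chromosome 8, 84841850 to 84846934, minus strand) spans 5085 bases, one of the shorter genes of the table (rank 240 of 251 from the longest), and has 9 exons in its principal transcript. The annotation also holds a processed pseudogene, Calr-ps, on chromosome 2 (140955765 to 140956249); whether it takes part of the reads was not tested.

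**Figure D1:**
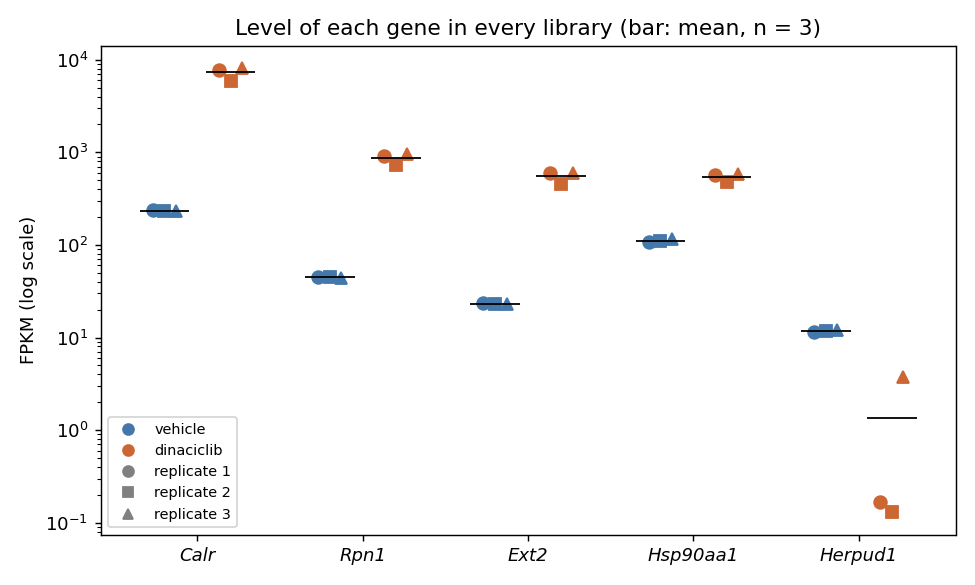
FPKM of the 5 genes on a log axis, with 1 point per library (blue vehicle, orange dinaciclib, marker shape the replicate) and a bar at the group mean of n = 3. Calr, Rpn1, Ext2 and Hsp90aa1 are higher in each dinaciclib library than in any vehicle library. Herpud1 is lower, with dinaciclib replicate 3 at 3.74 apart from 0.169 and 0.129. All genes of the table were picked for change on these libraries, so such separation is not particular to these 5.

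Rpn1, the oligosaccharyltransferase subunit, followed the same pattern at a lower level. Its FPKM was 45.5, 44.5 and 43.9 in vehicle replicates 1 to 3 and 917, 733 and 971 in dinaciclib replicates 1 to 3. The groups did not overlap, and dinaciclib replicate 2 was again the lowest of its group. Raw counts were 6546, 6858 and 7934 in vehicle and 10516, 10966 and 12540 in dinaciclib, 1.59 times as many in total. Its share of all counts was 0.0202% ± 0.000369 in vehicle and 0.394% ± 0.0564 in dinaciclib (SD, n = 3). The normalised count was 17.8-fold higher (log2 change 4.16, SE 0.128). Rpn1 (ENSMUSG00000030062, chromosome 6, 88084482 to 88105304, plus strand) has 10 exons in its principal transcript, and the microRNA gene Mir6376 lies within it on the other strand. Rpn1 was the 1 gene in the table out of 50 on the list for N-glycosylation and GPI anchors; the others were not analysed here.

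Ext2, the heparan sulfate polymerase gene, stood at an FPKM of 23.6, 22.8 and 23.2 in vehicle replicates 1 to 3 and at 596, 459 and 601 in dinaciclib replicates 1 to 3. The ranges were apart, and replicates 1 and 3 of dinaciclib lay close together above replicate 2. Raw counts were 5511, 5701 and 6809 in vehicle and 11100, 11145 and 12611 in dinaciclib, 1.93 times as many. The normalised count was 21.7-fold higher (log2 change 4.44, SE 0.132). Unlike Calr, Ext2 (ENSMUSG00000027198, chromosome 2, 93661028 to 93822568, minus strand) is a long gene of 161541 bases, rank 23 of 251. Its span shares 20312 bases with Alx4 and 511 with the pseudogene Gm13818, both on the other strand, and without a strand mark reads from shared exons could not be told apart.

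Ext1, the partner of Ext2 in the same enzyme, went the other way. Its FPKM was 8.34, 8.06 and 8.24 in vehicle replicates 1 to 3 and 2.24, 2.05 and 3.76 in dinaciclib replicates 1 to 3, with ranges apart. Ext1 fell by 1.75 on the log2 scale (SE 0.239), and its adjusted p was 0.000117 (edgeR quasi-likelihood, Benjamini-Hochberg). With TMM factors its log2 change was −0.38 and with DESeq2's own size factors −0.05, neither past the threshold. The ratio of Ext2 to Ext1 in FPKM does not depend on the library scale: it was 2.83, 2.83 and 2.82 in vehicle and 266, 223 and 159.8 in dinaciclib. In vehicle the ratio varied by 0.28%, less than the counting error of Ext2 (1.29%) or of Ext1 (2.07%) alone. Such closeness is therefore not read as a fixed proportion. In dinaciclib the ratio was far higher and more variable, on 46, 55 and 87 Ext1 counts. Both genes were picked for change on these libraries, Ext2 as higher and Ext1 as lower, so a higher ratio followed from that choice.

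Of the 41 genes listed for heparan sulfate and proteoglycans, 4 were in the table. Besides Ext2, 1 rose and 2 fell by edgeR's quasi-likelihood test. Of the 248 genes tested in all, 100% passed, 25.0% of them higher and 75.0% lower, because the authors had picked the genes on these libraries; a call is therefore no independent evidence. Sdc4, the core protein syndecan-4 that carries heparan sulfate, rose from an FPKM of 22.7 ± 0.361 to 163 ± 13.3 (SD, n = 3), a log2 change of 2.71. Cant1, a nucleotidase of the secretory pathway that proteoglycan synthesis requires, fell from 17.5 ± 0.256 to 1.06 ± 0.0801, a log2 change of −4.18, on 40 counts in the 3 dinaciclib libraries.

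Herpud1, the degradation factor, was the member that was lower. Its raw counts were 864, 934 and 1140 in vehicle replicates 1 to 3, and 1, 1 and 25 in dinaciclib replicates 1 to 3. In FPKM this was 11.6, 11.7 and 12.2 in vehicle and 0.169, 0.129 and 3.74 in dinaciclib. The groups did not overlap, but dinaciclib replicate 3 held 92.6% of the group's normalised counts. Counting error alone spans 16.2 to 36.9 for the 25 counts and 0.0253 to 5.57 for each single count (exact Poisson intervals at 95%, which leave out the spread between libraries). The normalised count was 9.68-fold lower in dinaciclib, a log2 change of −3.28 with SE 0.627. Without dinaciclib replicate 3 the log2 change was −6.44, a value that rests on 2 counts and on the prior count of the fit. The direction was the same without any 1 library, but the size of the difference is known only roughly. Herpud1 (ENSMUSG00000031770, chromosome 8, 94386438 to 94395377, plus strand) shares its first 535 bases with the antisense gene Gm15890, and reads there could not be told apart.

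With TMM factors the log2 change of Herpud1 was −1.92 (SE 0.678) and with DESeq2's own size factors −1.50 (SE 1.13). These scalings shifted the median of all genes by 1.37 and 1.67 upwards.

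Of 229 genes with at least 10 counts in the dinaciclib libraries, 4 had over 80% of their normalised counts in 1 library. Herpud1 was one of the 4, and Creb3l1, which encodes a transcription factor anchored in the membrane of the endoplasmic reticulum, was another. The 229 genes were not matched for depth: Herpud1 had 27 dinaciclib counts and Creb3l1 11, but Calr 180810. How uncommon such unevenness is among genes with few counts was not tested. Creb3l1 had 292, 348 and 441 counts in vehicle and 10, 0 and 1 in dinaciclib replicates 1 to 3, so its remaining counts sat mostly in replicate 1 and not in replicate 3. It fell by 3.13 on the log2 scale (SE 0.583; edgeR adjusted p 0.000765), and the log2 change was −6.05 without dinaciclib replicate 1 and −2.45 without replicate 2. Creb3l1 was the 1 listed gene besides Herpud1 among 40 of degradation and the unfolded protein response, and it did not pass with TMM factors (edgeR adjusted p 0.0522) or with DESeq2's own size factors (DESeq2 adjusted p 0.309). Whether library quality has a part in these single values was not tested.

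Hsp90aa1, the cytosolic chaperone, differed least among the 4 higher genes. Its FPKM was 107, 111 and 115 in vehicle replicates 1 to 3 and 566, 484 and 583 in dinaciclib replicates 1 to 3, without overlap. Here raw counts were fewer in dinaciclib, at 5656, 6317 and 6562 against 13387, 14873 and 18159, a ratio of 0.399. Because the size factors differed by 11.1 times, the normalised count was 4.47-fold higher, a log2 change of 2.16 with SE 0.0937 (3.53 with TMM factors and 3.84 with DESeq2's own). Its share of all counts went from 0.0437% ± 0.00167 to 0.214% ± 0.0208 (SD, n = 3). Hsp90aa1 (ENSMUSG00000021270, chromosome 12, 110690605 to 110702728, minus strand) has 11 exons in its principal transcript and overlaps no other gene of GENCODE M21. Of 44 listed cytosolic and mitochondrial chaperone genes it was the 1 in the table, and Calr was the 1 of 40 for chaperones of the endoplasmic reticulum.

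Together Calr, Rpn1, Ext2 and Hsp90aa1 took 0.148%, 0.147% and 0.149% of all counts in vehicle replicates 1 to 3, and 3.32%, 2.57% and 3.45% in dinaciclib replicates 1 to 3. Calr was the largest single share of the 4 in every library. All genes of the table took 2.53% to 2.57% in vehicle and 9.61% to 12.3% in dinaciclib, and Calr was 2.62% to 2.66% of those listed counts in vehicle and 17.8% to 19.3% in dinaciclib.

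**Figure D2:**
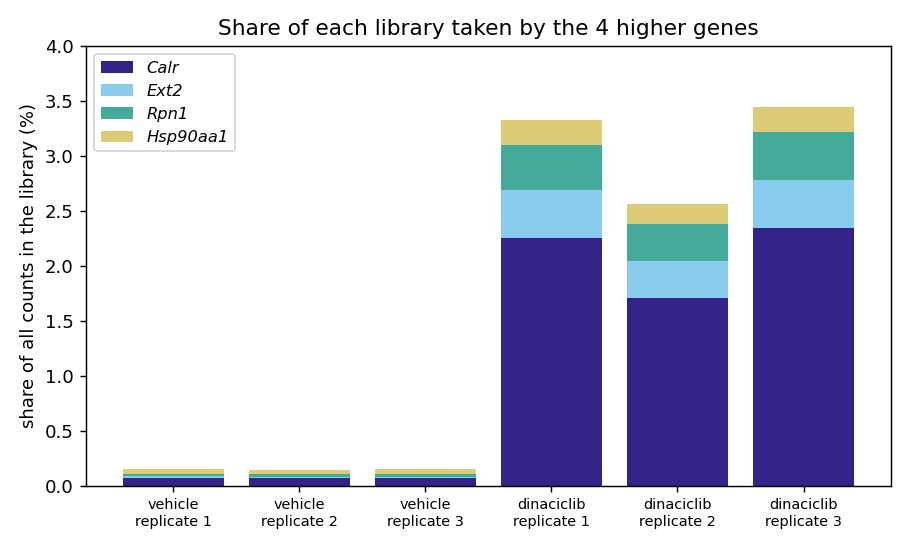
Stacked bars of the share of all counts in each library, in percent, taken by Calr, Ext2, Rpn1 and Hsp90aa1. The vehicle bars are 0.147% to 0.149% in height, and the dinaciclib bars reach 2.57% to 3.45%, replicate 2 being the lowest.

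The spread within dinaciclib was largely common to the 4 higher genes. Their normalised counts varied by 9.23% (Hsp90aa1) to 15.7% (Calr) as a coefficient of variation over the dinaciclib libraries and by 1.62% to 3.69% over vehicle. Counting error alone would give 0.407% to 1.27% in dinaciclib, less than the spread observed. Replicate 2 was the lowest dinaciclib library for all 4, as it was for 51 of the 62 tested genes of the table with a higher level. Within dinaciclib, ratios between these 4 genes taken within a library were steadier. In vehicle this did not hold for every pair: Hsp90aa1 over Rpn1 varied by 5.62%, more than either gene alone. Calr over Rpn1 in normalised counts was 5.43, 5.18 and 5.34 in dinaciclib replicates 1 to 3, a variation of 2.43%, and 3.33, 3.31 and 3.39 in vehicle. Ext2 over Rpn1 was 1.06, 1.02 and 1.01 in dinaciclib and 0.842, 0.831 and 0.858 in vehicle. These genes thus kept close proportions to each other within each group, while Hsp90aa1 over Rpn1 went from 2.05, 2.17 and 2.29 in vehicle to 0.538, 0.576 and 0.523 in dinaciclib.

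**Figure D3:**
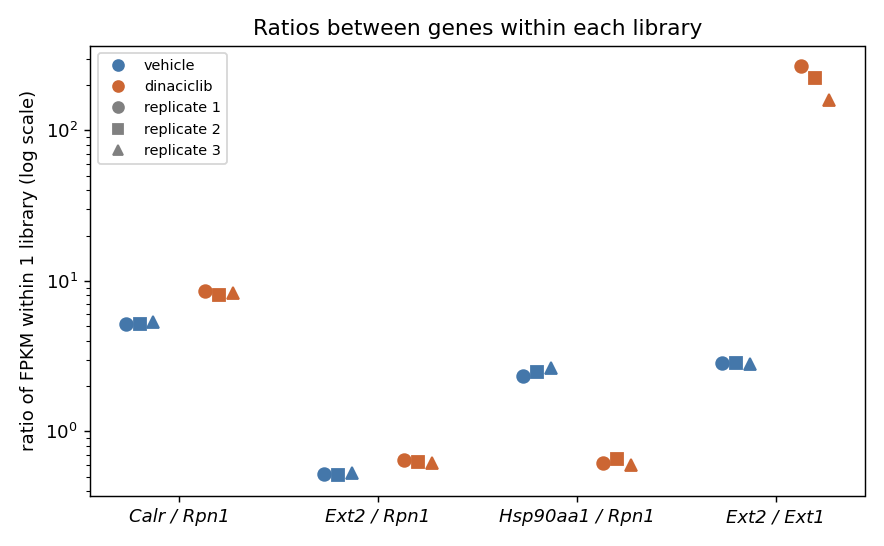
Ratios of FPKM between genes within 1 library on a log axis, with 1 point per library (blue vehicle, orange dinaciclib, marker shape the replicate). Calr / Rpn1 and Ext2 / Rpn1 are a little higher in dinaciclib, Hsp90aa1 / Rpn1 is lower, and Ext2 / Ext1 goes from about 2.83 to between 159.8 and 266.

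The order of levels differed between the groups. In vehicle the FPKM ran from Calr (234 ± 3.36) through Hsp90aa1 (111 ± 4.26), Rpn1 (44.7 ± 0.817) and Ext2 (23.2 ± 0.416) to Herpud1 (11.9 ± 0.313), each apart from its neighbour beyond the spread. In dinaciclib it ran from Calr (7289 ± 1178) through Rpn1 (874 ± 125), Ext2 (552 ± 81.0) and Hsp90aa1 (545 ± 52.8) to Herpud1 (1.35 ± 2.08; SD, n = 3 throughout), and Ext2 and Hsp90aa1 did not differ beyond their spread. The authors' gene length enters these values: for Ext2 it is 7328 bases against 2871 in the principal transcript of GENCODE M21. Per kilobase of the principal transcript, Ext2 stood above Rpn1 in both groups, at 59.2 against 55.5 in vehicle and 1409 against 1085 in dinaciclib. On this scale Ext2 also stood above Hsp90aa1 in dinaciclib, at 1409 ± 207 against 653 ± 63.3 (SD, n = 3). The order of Ext2 and Rpn1 and the closeness of Ext2 and Hsp90aa1 in dinaciclib therefore depend on the length used. Each gene's own change does not.

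**Figure D4:**
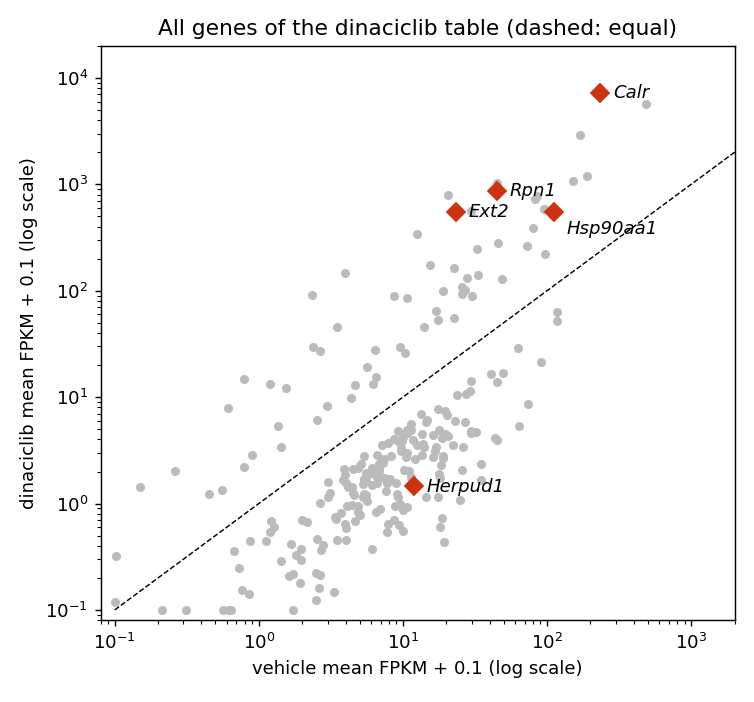
Mean FPKM + 0.1 of all 251 listed genes in vehicle (horizontal) and dinaciclib (vertical), both on log axes, with the dashed line at equal levels and the 5 genes in red. Calr is at the top, Rpn1, Ext2 and Hsp90aa1 lie above the line, and Herpud1 lies among the lower genes; the empty band along the line reflects that the table holds only genes with a change.

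By the distance over the 6 libraries, on the scale of log2(normalised count + 1) minus the vehicle mean, Ext2 was nearest to Aldh2 (distance 0.139), then to Hmga1b (0.404) and Rpn1 (0.491). Hsp90aa1 was nearest to Rpl22 (0.179), Ewsr1 (0.195) and Ccnd3 (0.264), and Rpn1 to Crlf2 (0.215), Msn (0.357) and Aldh2 (0.370). The nearest to Calr were Hmga1b (0.337), Cox6c (0.544) and Fstl3 (0.636). Herpud1 had no close neighbour: Hoxa9 was nearest at 1.16, with a mean of 43.7 normalised counts in vehicle and 2.18 in dinaciclib, followed by Men1 (2.50) and Max (2.56). The Herpud1 distances rest on 1, 1 and 25 dinaciclib counts, so counting error weighs heavily in them and they say little about likeness. These distances describe likeness in 6 libraries of a picked table.

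The other listed genes of the secretory pathway were mostly lower, as were most genes of the table. Over 6 lists with 273 genes, 15 were in the table; besides the 5 members 10 were tested, and 1 rose while 9 fell by edgeR's quasi-likelihood test, beside 25.0% higher and 75.0% lower in the table. Genes of translocation and vesicle transport gave 6 of 58 in the table, and 6 fell while 0 rose. Their median log2 change was −2.66 against −1.83 over all genes tested, a value that includes the genes that rose. Among the 186 lower genes the 6 ranked from 48 (Cltc) to 126 (Trip11), counted from the most negative, and so were spread over the lower genes. Cltc, the clathrin heavy chain, fell from an FPKM of 73.9 ± 3.86 to 8.53 ± 0.937 (SD, n = 3), a log2 change of −3.24. Tfg, which organises the sites where vesicles leave the endoplasmic reticulum, fell from 29.8 ± 1.09 to 4.48 ± 2.24, on 16, 28 and 46 dinaciclib counts. The Golgi tethers Golga5 (10.1 ± 0.469 to 1.96 ± 0.829) and Trip11 (5.27 ± 0.166 to 1.59 ± 0.939) fell too. Golga5 had 10, 32 and 19 dinaciclib counts. Trip11 had 25, 90 and 33 dinaciclib counts; its log2 change was −1.83, or −2.45 without dinaciclib replicate 2, and with TMM factors it was −0.44 and did not pass. The Golgi scaffold gene Gopc and the dynein adaptor gene Hook3 fell too, with log2 changes of −2.85 and −2.47. By edgeR's quasi-likelihood test, adjusted p-values of these 6 genes lay between 2.9e-08 (Cltc) and 0.000798 (Trip11). Of the 6, 5 also passed with TMM factors. The authors had picked the genes on these libraries, and all 248 tested passed in the main fit. These calls are therefore no independent evidence.

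**Figure D5:**
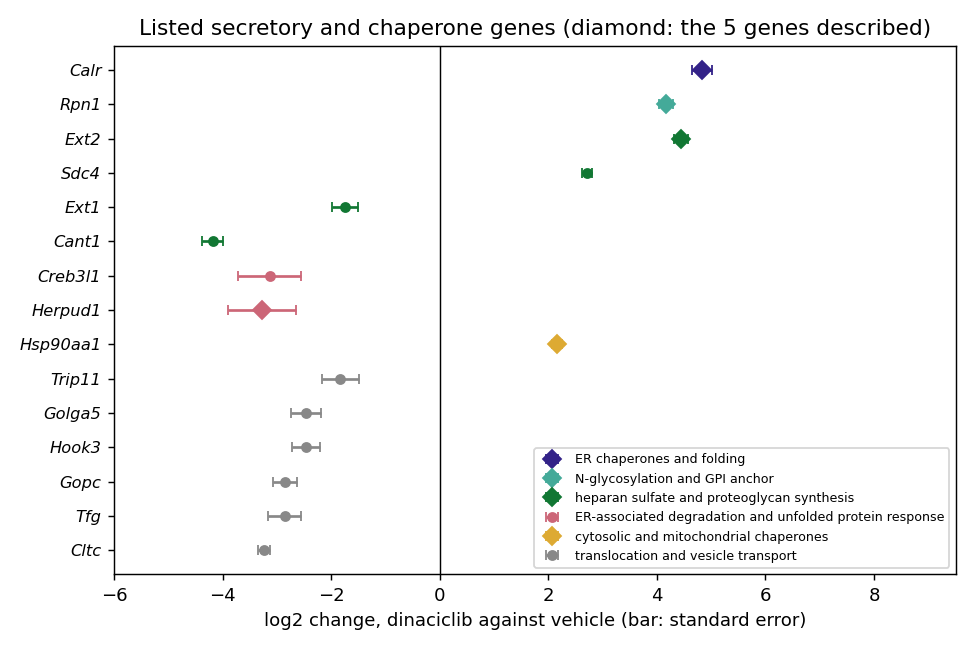
Log2 change between dinaciclib and vehicle of the 15 listed genes, coloured by list, with the standard error as a bar and the 5 described genes as diamonds. Calr, Rpn1, Ext2, Hsp90aa1 and Sdc4 lie to the right of 0, and the other 10 lie between −4.18 and −1.75.

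In the MGH-CP1 table, which lists 471 genes, 0 of the 5 members appeared, and a gene that is not listed there is not reported as unchanged. Of the 273 list genes Srp54a, which encodes a subunit of the signal recognition particle, was the 1 listed, with a log2 change of −1.04 in the authors' deposited table.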

How the data were processed

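RNA sequencing counts of EHE17 cells were compared between 3 dinaciclib and 3 vehicle libraries, with groups read from the labels. Among tools, the submitters' processing notes name HISAT2 2.0.5, fastp, DESeq2 1.20.0 and featureCounts 1.5.0-p3. The build is not given in the sources used here, nor is the annotation. All 251 gene identifiers of the dinaciclib table are in GENCODE M21 (GRCm38), 242 of them (96.4%) with the same start and end, so coordinates were read as GRCm38.

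The authors deposited raw read counts per gene. Per the file headers a further set of columns is per library, and its values are the authors' normalised signal, each count divided by 1 size factor. The authors also deposited FPKM, scaled to their gene length and the library total. Count, FPKM and length together returned 1 total per library. The log2 fold change and adjusted p-value quoted for 1 MGH-CP1 gene are from the authors' deposited table.

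The tests used edgeR 4.0.16 in R 4.3.3 (quasi-likelihood, two-sided) on the counts of the 6 libraries, scaled by the authors' size factors, with filterByExpr at a minimum count of 10 and Benjamini-Hochberg adjustment over all genes tested at a threshold of 0.05. Standard errors are the absolute log2 change over the square root of the F statistic. The fit was tested on simulated data. Replicates differed beyond counting noise (chi-square over degrees of freedom 5.89 to 6.67 among vehicle and 6.97 to 55.1 among dinaciclib libraries), so each was counted. Scaling by TMM factors was not the main choice because the table holds only genes picked for change.

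The members and the 6 gene lists were chosen with earlier results of these data known. The genes named are the 5 members, every gene of the lists found in a table, and for each member the 3 genes nearest in Euclidean distance over the 6 libraries, on log2(normalised count + 1) minus the vehicle mean. Intervals on counts are exact at the 95% level and cover counting error only. Alternatives were TMM factors, total counts, DESeq2 1.42.0 with the authors' or its own size factors, no filter, a threshold of 0.01, a replicate block, limma 3.58.1 on log2(FPKM + 1), member changes on log2(FPKM + 1) and log2(FPKM + 0.1), each library left out in turn and, added after the data were seen, principal transcript lengths. The labels call the replicates biological without saying whether they were separate cultures. The p-values therefore set the group difference against the spread between these libraries only, estimated in part over all the picked genes. Figures were drawn with matplotlib 3.10.9.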

Additional observations from a re-analysis of the deposited data

How the results depend on the processing

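The sign of all 5 members' log2 changes was the same under every alternative run. For Herpud1 it was least firm with DESeq2's own size factors, at −1.50 with SE 1.13. TMM factors over the listed genes shifted the median log2 change of the table by 1.37 and DESeq2's own size factors by 1.67, since both treat a picked set as mostly unchanged; total counts shifted it by 0.13. The share of higher calls was 25.0% with the authors' size factors, 37.3% with TMM and 46.6% with DESeq2's own. With TMM the log2 changes were 6.19 for Calr, 5.52 for Rpn1, 5.81 for Ext2 and 3.53 for Hsp90aa1, and with DESeq2's own size factors 6.52, 5.84, 6.13 and 3.84; relative to the shift they moved little. Herpud1 ranged from −6.44 to −2.66 when 1 library was left out, the other members moving by less than their spread. For degradation and the unfolded protein response, Creb3l1 aside from Herpud1, 0 genes passed with TMM (1 at an unadjusted edgeR p of 0.0362) and 0 with DESeq2's own size factors (unadjusted DESeq2 p 0.252), against 1 by edgeR with the authors' factors. Counts for 3 lists that hold only a member were not made. Per kilobase of principal transcript the levels in vehicle were 308 for Calr, 55.5 for Rpn1, 59.2 for Ext2, 14.2 for Herpud1 and 133 for Hsp90aa1, and in dinaciclib 9612, 1085 and 1409 for the first 3 and 653 for Hsp90aa1. Same-numbered libraries did not deviate together (correlations 0.02, −0.03 and −0.14). These values show no pairing by number, but over genes picked for change they cannot exclude one. With the replicate block 240 genes passed in place of 248, and the log2 change of Herpud1 was −3.88. Depth limits Herpud1, Creb3l1 and Cant1 most, which have 27, 11 and 40 counts in dinaciclib. It also limits Golga5, Gopc and Tfg, with 61, 69 and 90.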
